A study of Mus musculus with 6 samples.

Results

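The genes described here encode the degradative enzymes of the lysosome, the proteins of its membrane and the machinery that delivers enzymes to it. They were given as 42 gene symbols, and all 42 were matched to Ensembl identifiers among the 54232 genes of the count files. By role they comprised 8 cysteine proteases, 3 aspartic and serine proteases, 6 enzymes of glycogen and glycoprotein breakdown, 10 genes of sphingolipid and neutral lipid breakdown, 7 enzymes of glycosaminoglycan breakdown, 4 membrane proteins and 4 genes of mannose 6-phosphate targeting. RNA was sequenced from the livers of chow-fed male C57BL/6 mice aged 8 to 10 weeks. Every mouse was null for FXR (gene Nr1h4), a nuclear receptor for bile acids, and both groups carried floxed Xbp1. In the 3 SKO libraries (Fxr-/-Xbp1fl/fl) Xbp1 was left intact, and in the 3 DKO libraries (Fxr-/-Xbp1LKO) it was deleted in the liver. The Cre driver and the deleted exons are not given here, and no group with intact FXR was analysed here, so every difference is one between 2 FXR-null groups.

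Lysosomal hydrolases are made in the endoplasmic reticulum (ER), glycosylated there, and tagged in the Golgi with mannose 6-phosphate by the GlcNAc-1-phosphotransferase complex. Mannose 6-phosphate receptors then carry them to endosomes, and the enzymes mature in the acidic lysosome. Many lysosomal genes carry a CLEAR element in the promoter, the site bound by TFEB and TFE3, transcription factors that respond to nutrients and lysosomal stress. XBP1, activated when unfolded proteins build up in the ER, raises genes of the ER and the secretory pathway.

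Total counts were 16966422 to 21107674 per library. Xbp1 was lower in each DKO library (67.0 to 95.7) than in any SKO library (225 to 260.3) in normalised counts-per-million (CPM, counts scaled by library total and TMM factor), a log2 fold change of -1.68 ± 0.14 (SE; edgeR quasi-likelihood test, Benjamini-Hochberg adjusted p = 0.000146). Nr1h4 transcripts were counted in both groups (98.5 ± 5.93 and 97.2 ± 3.36 CPM, mean ± SD, n = 3), and the part removed from the FXR-null allele is not given, so this value checks nothing. All 8 hepatocyte markers examined were present, with albumin at 31355 to 75508 CPM. Whether each library is 1 animal is not stated, and 4 titles (3 DKO, 1 SKO) carry a pair of numbers of unknown meaning, so the p-values reflect spread among libraries that may be pools or technical repeats.

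Of the 42 lysosomal genes, 9 were higher and 6 lower in DKO at an edgeR adjusted p under 0.05, and 27 were not called. The called genes made up 35.7% of the list, while 20.0% of the 13986 genes tested were called. Higher calls made up 21.4% against 10.3% of all genes tested, and lower calls 14.3% against 9.70%. The shares of 10.3% and 9.70% are also the background for the counts by role and by list given below. All 42 passed the filter on low counts, and 41 averaged at least 5 CPM, a level at which 21.7% of the 9834 genes tested were called (8.92% higher, 12.8% lower). The median log2 fold change was 0.06, beside 0.01 for all genes tested, so the lysosomal genes did not move one way: cysteine proteases and sphingolipid enzymes were represented among the rises, and Lamp1, Igf2r, Gm2a and Gnptg among the falls. Only 1 of the 15 calls, Lamp1, reached a 2-fold difference. The number of higher calls fell to 4 without replicate 2 or 3 of SKO or replicate 1 of DKO, and to 3 without DKO replicate 3, while lower calls stayed between 5 and 7. Scaling by total counts alone gave 19 higher and 4 lower genes, and upper-quartile factors 11 and 6. Ctsl, Ctsz, Hexa, Gm2a, Lamp1, Gnptg and Igf2r were called in each of 12 alternative fits.

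**Figure D1:**
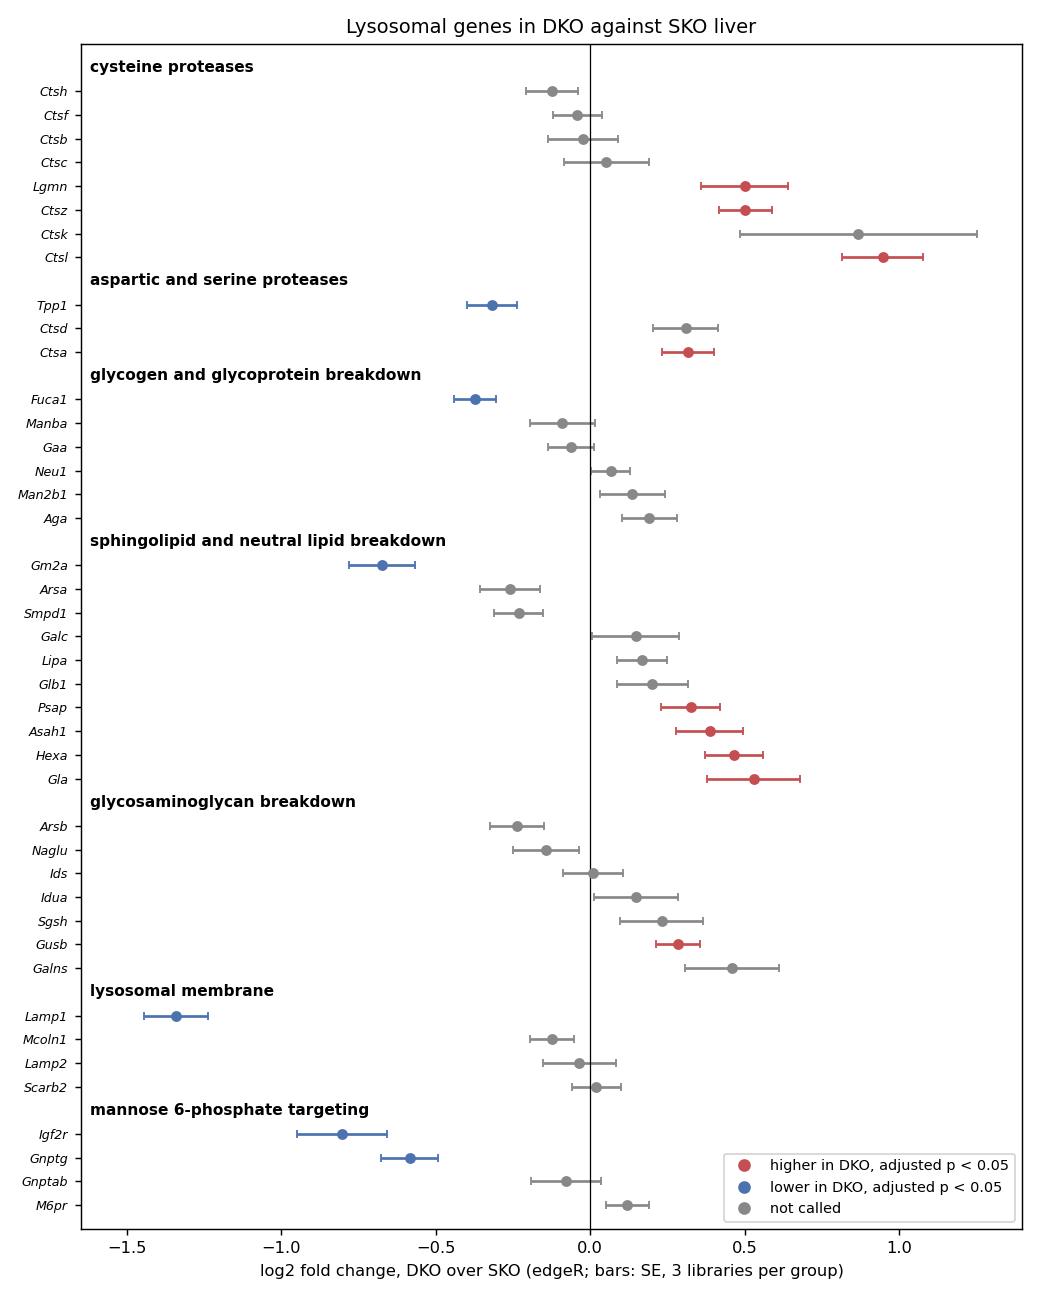
Log2 fold change of each of the 42 lysosomal genes in DKO over SKO (x axis; points, edgeR estimates; bars, SE; 3 libraries per group), grouped by role, with genes past an adjusted p of 0.05 in red (higher) or blue (lower). Lamp1 lies farthest to the left at -1.34, and Ctsl farthest to the right at 0.95.

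Lamp1 showed the largest difference among the 42. It encodes LAMP-1, a heavily glycosylated protein that lines the inner face of the lysosomal membrane. Lamp1 (ENSMUSG00000031447, chromosome 8, 13159161 to 13175338 in mm10, plus strand) stood at 767, 733 and 714 CPM in SKO and at 296, 258 and 320.0 CPM in DKO. The groups lay far apart relative to their own spread, and the mean fell from 738 ± 26.8 to 291 ± 31.2 CPM, 2.53-fold (log2 -1.34 ± 0.10, edgeR adjusted p = 4.36e-05). With total counts alone as the scale, where the median over all genes tested was 0.23 in place of 0.01, the log2 difference of Lamp1 was still -1.12.

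The other 3 membrane proteins were not called. Lamp2, whose product is the related LAMP-2 and takes part in chaperone-mediated autophagy, was 1049, 893 and 854 CPM in SKO and 807, 969 and 952 CPM in DKO, with overlapping groups (log2 -0.03 ± 0.12, edgeR adjusted p = 0.865). Scarb2 encodes LIMP-2, the receptor that delivers glucocerebrosidase, and stood at 285 ± 8.60 and 289 ± 13.3 CPM. For Mcoln1, the lysosomal calcium channel TRPML1, the values were 51.0 ± 2.69 and 46.8 ± 1.64 CPM. With total counts alone Scarb2 was called higher (log2 0.24) and the estimates for Lamp2 and Mcoln1 turned positive without a call (0.18 and 0.10).

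Within a library the ratio of Lamp1 to Lamp2 does not depend on scaling. In counts per kilobase of exon it was 2.61, 2.93 and 2.99 in SKO and 1.31, 0.951 and 1.20 in DKO. Every DKO library thus lay below every SKO library, with a difference in mean log2 ratio of -1.31 (two-sided exact permutation test, p = 0.1, the smallest that 3 against 3 allows). This pair was chosen after the values were seen. Ranked by counts-per-million per kilobase of exon among the 42 genes, Lamp1 went from rank 1 in SKO (276 ± 10.0) to rank 6 in DKO (109 ± 11.7), while Lamp2 held rank 7 in both (97.6 ± 10.8 and 95.2 ± 9.33). These lengths are the union of all annotated exons, which exceeds the length of single transcripts in several genes and lowers their per-kilobase level.

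Machinery for mannose 6-phosphate targeting fell in 2 of its 4 genes. Igf2r encodes the cation-independent mannose 6-phosphate receptor, which also binds IGF2, and it stood at 67.7, 74.2 and 79.0 CPM in SKO and at 49.1, 32.3 and 45.1 CPM in DKO. No DKO library reached the SKO range, and the log2 fold change was -0.80 ± 0.15 (edgeR adjusted p = 0.00817). M6pr, the smaller cation-dependent receptor, averaged 106 ± 4.73 CPM (SKO) and 115 ± 3.61 CPM (DKO) without a call, although its groups did not overlap (log2 0.12 ± 0.07, edgeR adjusted p = 0.26). The ratio of Igf2r to M6pr per kilobase was 0.272 to 0.348 in SKO and 0.129 to 0.191 in DKO, without overlap.

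Gnptg encodes the gamma subunit of the phosphotransferase that makes the mannose 6-phosphate tag, and Gnptab the alpha and beta subunits with the catalytic site. Gnptg was 26.4, 24.4 and 25.7 CPM in SKO and 17.2, 15.4 and 18.4 CPM in DKO. That is a fall of 0.58 ± 0.09 on the log2 scale (edgeR adjusted p = 0.00249). Gnptab was not called, at 19.9 ± 3.05 (SKO) and 18.8 ± 0.982 CPM (DKO; log2 -0.08 ± 0.11). Per kilobase, Gnptg over Gnptab was 2.97 to 3.70 in SKO and 2.28 to 2.46 in DKO. Exons of Gnptg overlap those of Unkl on the opposite strand over 49.5% of their length, and whether counting used strand is not given, so part of the Gnptg reads may have been lost or shared. Unkl itself was 8.22 ± 0.537 and 6.83 ± 0.791 CPM and was not called (edgeR adjusted p = 0.202).

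Promoters of the 3 genes above and of Gla, an enzyme gene that rose, are shown because each carries the E-box letters CACGTG that lie inside the CLEAR element, although the genes moved in opposite directions. Each stretch has 120 bases, written 5′ to 3′ on the strand of the gene from RefSeq (GRCm38.p6, the assembly of mm10), with each CACGTG in capitals. Those of Lamp1 (chr8:13159041-13159160, plus strand), Igf2r (chr17:12769707-12769826, minus strand) and Gnptg (chr17:25240117-25240236, minus strand) end at the base before an annotated start. For Gnptg this is the more downstream of 2 starts, and for Gla (chrX:134601136-134601255, minus strand) the stretch covers bases -250 to -131.
Lamp1: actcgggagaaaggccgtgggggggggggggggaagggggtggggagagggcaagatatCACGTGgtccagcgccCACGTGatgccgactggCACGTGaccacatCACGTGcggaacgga
Igf2r: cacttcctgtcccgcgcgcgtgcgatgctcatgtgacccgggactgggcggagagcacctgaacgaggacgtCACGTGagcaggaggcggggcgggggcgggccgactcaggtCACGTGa
Gnptg: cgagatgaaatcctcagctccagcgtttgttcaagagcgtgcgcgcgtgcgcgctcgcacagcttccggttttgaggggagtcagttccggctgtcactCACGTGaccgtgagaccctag
Gla: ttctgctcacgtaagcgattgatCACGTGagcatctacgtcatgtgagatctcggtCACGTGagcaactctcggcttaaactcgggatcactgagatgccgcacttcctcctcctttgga

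Lamp1 holds 4 E-boxes within 61 bases of its start, Igf2r and Gla hold 2 each, and Gnptg holds 1. RefSeq promoter windows, from 250 bases before to 50 after each annotated start, were found for 36 of the 42 genes and for 10569 of the genes tested, and both strands were searched. The E-box CACGTG occurred in 15 of the 36 genes (41.7%), against 11.6% of all genes searched and 9.69% of single windows. Its extension TCACGTGA, the 8-letter core of the CLEAR element, occurred in 6 of 36 (16.7%: Ctsa, Ctsd, Gla, Gnptg, Igf2r and Mcoln1) against 2.11%, and the full element, with a G before and a C after that core, in Igf2r alone (2.78% against 0.747%). Each shorter motif lies inside the longer one, so these counts overlap. Many lysosomal genes carry the CLEAR element, as described above, so shares above those of all genes are no new result. E-boxes were present in 4 of 8 searched genes that rose, 3 of 6 that fell and 8 of 22 that were not called. Motifs of the unfolded protein response were searched too: TGACGTG, CCACGTCA (which overlaps it on the other strand) and the ER stress element (CCAAT and CCACG at a fixed distance) were found in 0 of the 36 genes, against 3.18%, 1.04% and 0.18% of all genes searched. At such low shares, 36 genes are too few for a count of 0 to show that these motifs are rarer among them. A match describes letters in a window and not a bound site.

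**Figure D2:**
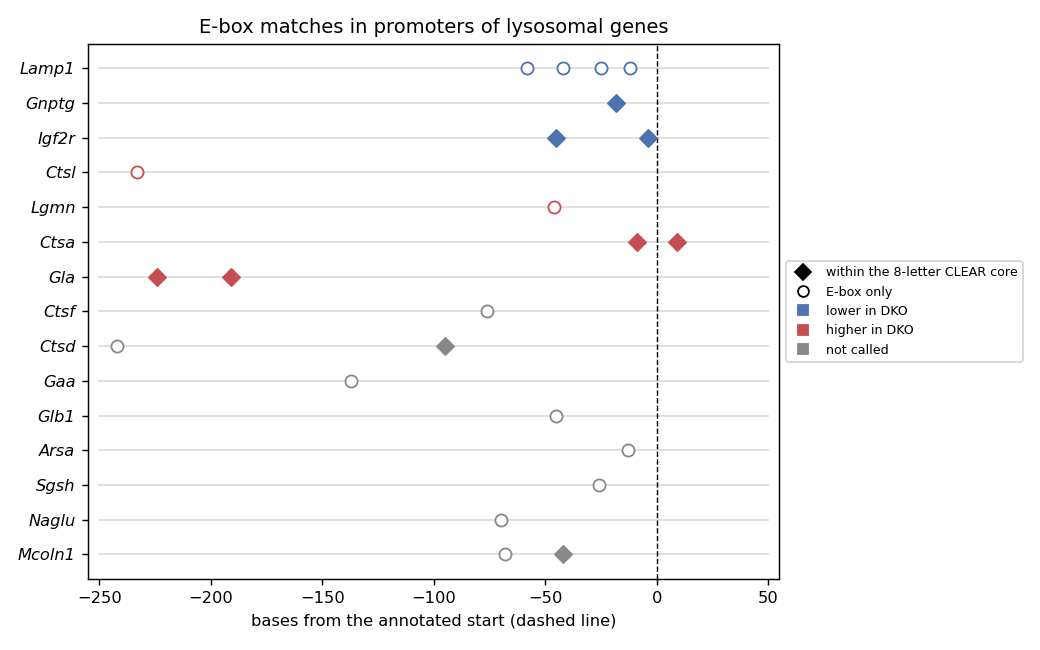
Positions of CACGTG matches (x axis, bases from the annotated start, dashed) in the promoters of the 15 lysosomal genes that hold one, with filled diamonds where the match lies in the 8-letter core and colours for the direction of change in DKO. Lamp1 carries 4 matches close to its start, and matches occur in genes that rose, fell or were not called.

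Cysteine proteases, which cut proteins delivered to the lysosome, rose in 3 of 8 cases and fell in none. Ctsl, encoding the endopeptidase cathepsin L, was 770.3, 939 and 838 CPM in SKO and 1745, 1375 and 1790.2 CPM in DKO. All 3 DKO libraries stood above the SKO range, a 1.93-fold rise (log2 0.95 ± 0.13, edgeR adjusted p = 0.00125). Ctsl thereby became the most counted of the 42 genes, and per kilobase it went from rank 5 to rank 2, behind Psap. Ctsz, the exopeptidase cathepsin Z, rose from 203, 225 and 232 CPM to 324, 294 and 316 CPM (log2 difference 0.50 ± 0.09, edgeR adjusted p = 0.00395). Lgmn encodes legumain, an asparaginyl endopeptidase that processes cathepsins, and was 106, 88.6 and 97.9 CPM in SKO and 164, 109 and 139 CPM in DKO. Its DKO replicate 2 lay just above the highest SKO library, and the call (log2 0.50 ± 0.14, edgeR adjusted p = 0.0381) ended without any library except DKO replicate 2, with adjusted p-values up to 0.128.

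The other 5 cysteine proteases were not called. Ctsb, cathepsin B, and Ctsl stood at the same level in SKO within their spread, with 131 ± 1.24 and 131 ± 13.1 CPM per kilobase. That likeness depends on the union exon lengths used (6051 and 6489 bp). Means of Ctsb were 795 ± 7.50 (SKO) and 782 ± 105 CPM (DKO; log2 -0.02 ± 0.11, edgeR adjusted p = 0.909). The ratio of Ctsl to Ctsb per kilobase was 0.913, 1.10 and 0.976 in SKO and 1.87, 1.93 and 2.06 in DKO. Ctsc, which activates serine proteases of immune cells, Ctsf and Ctsh had log2 fold changes of 0.05, -0.04 and -0.13. Ctsk, a collagen-degrading cathepsin best known from osteoclasts, had only 184 counts over the 6 libraries. It stood at 0.762 to 1.37 CPM in SKO and at 3.06, 1.27 and 1.50 CPM in DKO, and its log2 difference of 0.87 ± 0.38 was not called (edgeR adjusted p = 0.139).

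Among the aspartic and serine proteases, Ctsa rose, Tpp1 fell and Ctsd was not called. Ctsa encodes cathepsin A, which protects beta-galactosidase and neuraminidase in a complex, and went from 145, 157 and 171 CPM to 205, 185 and 198 CPM (log2 difference 0.32 ± 0.09, edgeR adjusted p = 0.0276). Tpp1, the tripeptidyl peptidase mutated in a childhood form of neuronal ceroid lipofuscinosis, was 130, 122 and 138 CPM in SKO and 105, 95.9 and 111 CPM in DKO (log2 difference -0.32 ± 0.08, edgeR adjusted p = 0.0225). Neither pair of groups overlapped. The call for Ctsa ended without SKO replicate 1 or 2 or DKO replicate 1 or 3 (adjusted p up to 0.105), and that for Tpp1 without SKO replicate 3 or DKO replicate 2 (up to 0.0745) and with total counts (log2 -0.10). Ctsd, the aspartic protease cathepsin D, averaged 257 ± 22.6 (SKO) and 319 ± 34.5 CPM (DKO; log2 0.31 ± 0.11, edgeR adjusted p = 0.063), with overlapping groups, and passed the threshold in 6 of the 12 alternatives.

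**Figure D3:**
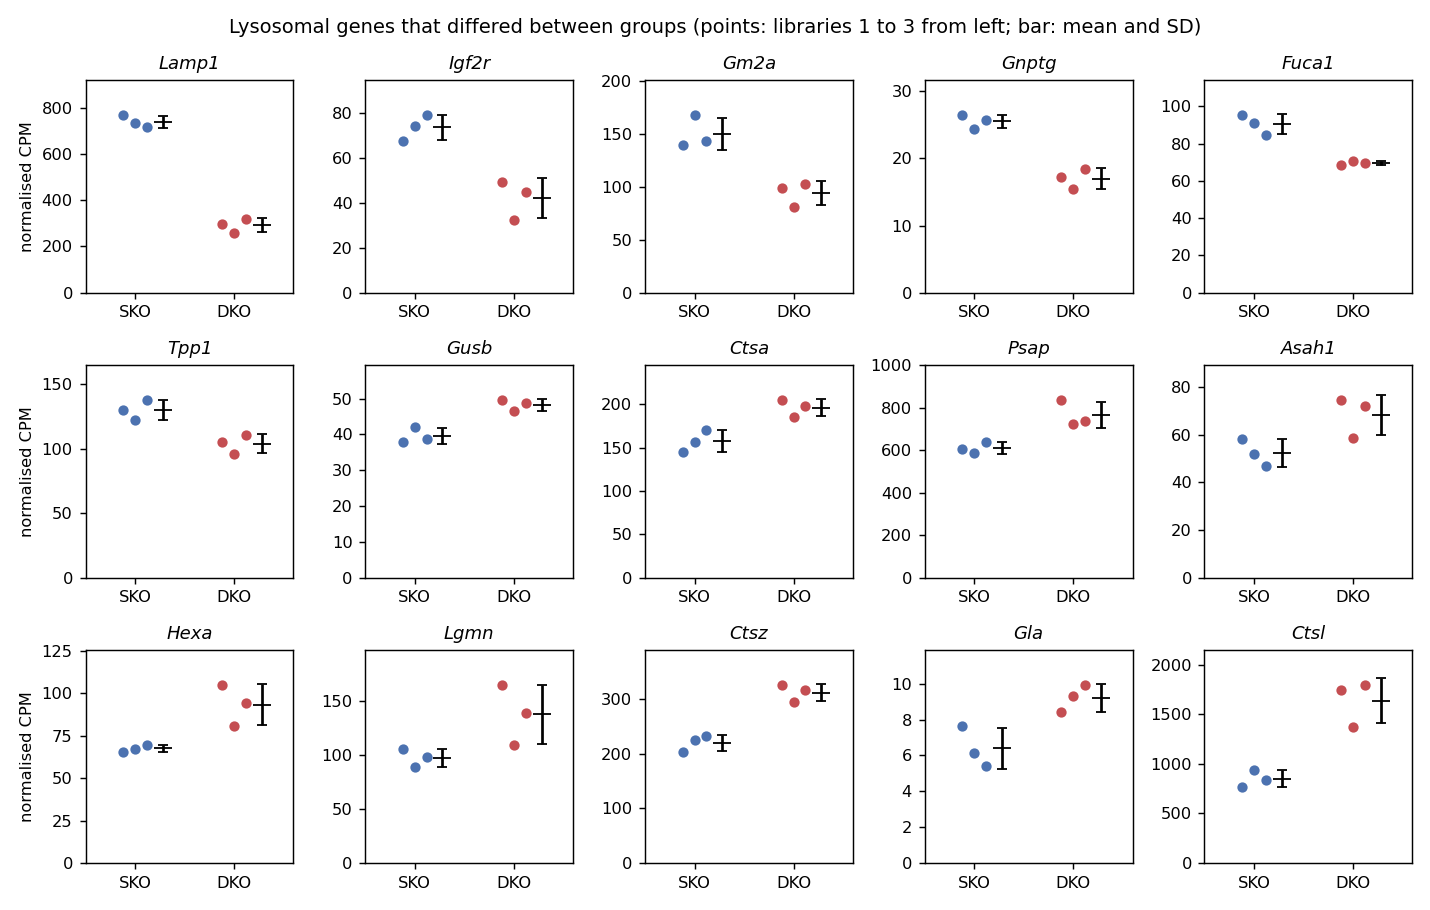
Normalised CPM (y axes, from 0) of the 15 lysosomal genes that differed between groups, with points for replicates 1 to 3 from left to right and bars for mean and SD, ordered from the largest fall to the largest rise. In none of the 15 genes do the SKO and DKO points overlap. These genes were selected by their call on the same libraries, so the separation is no further support for the calls.

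Sphingolipid and neutral lipid breakdown held 4 rises and 1 fall in 10 genes. Psap encodes prosaposin, the precursor of the saposins, which present sphingolipids to their hydrolases, and rose from 608, 587 and 639.8 CPM to 835, 725 and 737 CPM (log2 difference 0.33 ± 0.10, edgeR adjusted p = 0.041). Leaving out any single library ended the call for Psap (adjusted p from 0.0511 to 0.172). Hexa, the alpha subunit of beta-hexosaminidase, was 65.6, 67.3 and 69.8 CPM in SKO and 105, 80.8 and 94.6 CPM in DKO. Its rise of 0.47 ± 0.09 on the log2 scale (edgeR adjusted p = 0.00816) was kept without any one library.

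Asah1, acid ceramidase, rose from 52.3 ± 5.82 to 68.3 ± 8.41 CPM (log2 difference 0.39 ± 0.11, edgeR adjusted p = 0.0332), and DKO replicate 2 at 58.7 CPM lay next to SKO replicate 1 at 58.3 CPM. Gla, alpha-galactosidase A, is a gene of low level here and rose from 7.62, 6.14 and 5.40 CPM to 8.39, 9.32 and 9.90 CPM (log2 difference 0.53 ± 0.15, edgeR adjusted p = 0.035). Each of these calls ended in 4 of the 6 fits that left out a library, with adjusted p-values up to 0.105 for Asah1 and 0.117 for Gla. These were the fits without SKO replicate 2 or 3 or DKO replicate 3, and without DKO replicate 1 for Asah1 or DKO replicate 2 for Gla.

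Gm2a was the gene of this group that fell. It encodes the GM2 activator, which lifts GM2 ganglioside from the membrane for cleavage by beta-hexosaminidase A. Its values were 139.5, 167 and 143 CPM in SKO and 98.5, 80.6 and 102 CPM in DKO (log2 difference -0.68 ± 0.11, edgeR adjusted p = 0.00256). Activator and enzyme subunit thus moved apart: Gm2a over Hexa per kilobase was 1.03, 1.20 and 0.99 in SKO and 0.455, 0.483 and 0.524 in DKO.

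None of the 5 other lipid genes was called. Lipa, lysosomal acid lipase, which hydrolyses cholesteryl esters and triglycerides, averaged 295 ± 11.2 (SKO) and 331 ± 12.5 CPM (DKO; log2 0.17 ± 0.08, edgeR adjusted p = 0.172), and its groups did not overlap. Smpd1, acid sphingomyelinase, and Arsa, arylsulfatase A, lay lower in every DKO library than in any SKO library without passing the test (log2 -0.23 ± 0.08 and -0.26 ± 0.10, edgeR adjusted p = 0.0621 and 0.0834). Glb1, beta-galactosidase, and Galc, galactosylceramidase, overlapped between the groups.

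**Figure D4:**
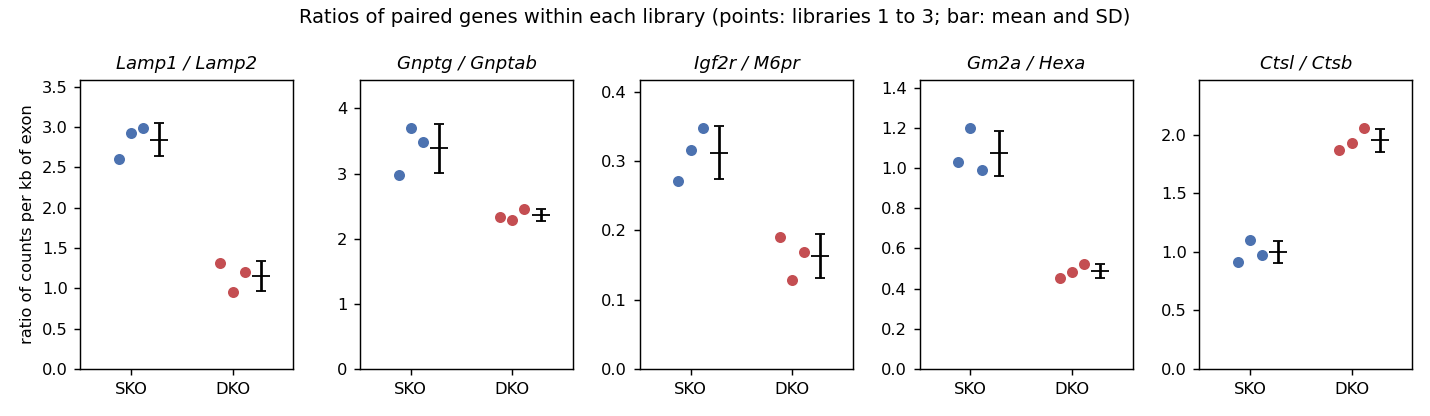
Ratios of counts per kilobase of exon between 5 pairs of lysosomal genes within each library (y axes, from 0; points, replicates 1 to 3; bars, mean and SD). In each pair the 3 DKO ratios lie outside the SKO range, lower for the first 4 pairs and higher for Ctsl over Ctsb.

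The 5 ratios were chosen after the values were seen, as pairs that work together or are related. Each sets a called gene over a partner that was not called or, for Hexa, moved the other way. Separation of the groups thus follows largely from the choice and is no further support for the calls. In each pair the groups did not overlap, and each exact permutation test gave p = 0.1 (two-sided; 0.1 adjusted over the 5 pairs), the smallest the design allows, so none could reach 0.05. The differences in mean log2 ratio were -1.31 for Lamp1 over Lamp2, -0.52 for Gnptg over Gnptab, -0.94 for Igf2r over M6pr, -1.14 for Gm2a over Hexa and 0.97 for Ctsl over Ctsb.

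Enzymes of glycogen and glycoprotein breakdown changed in 1 of 6 genes, where 20.0% of all genes tested were called. Fuca1, alpha-L-fucosidase, was 95.2, 91.0 and 84.7 CPM in SKO and 68.6, 70.7 and 69.8 CPM in DKO, a fall of 0.37 ± 0.07 on the log2 scale (edgeR adjusted p = 0.0057). This call was kept without any one library and ended with total counts (log2 -0.15, edgeR adjusted p = 0.117). Gaa, the acid alpha-glucosidase that degrades glycogen, averaged 110 ± 8.20 (SKO) and 105 ± 0.0455 CPM (DKO). Man2b1 and Manba, the lysosomal mannosidases, Aga, aspartylglucosaminidase, and Neu1, neuraminidase, were not called, with log2 fold changes from -0.09 (Manba) to 0.19 (Aga).

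Glycosaminoglycan breakdown was represented by 7 genes, of which Gusb rose, where 10.3% of all genes tested were called higher. Gusb, beta-glucuronidase, went from 37.9, 42.1 and 38.7 CPM to 49.5, 46.4 and 48.7 CPM (log2 difference 0.28 ± 0.07, edgeR adjusted p = 0.0217), a call that ended with DESeq2 and without SKO replicate 1 or 3 or DKO replicate 1 or 3 (adjusted p up to 0.0728). Galns, which removes sulfate from keratan and chondroitin sulfate, was 8.39, 8.33 and 8.61 CPM in SKO and 13.6, 8.98 and 12.2 CPM in DKO. Its DKO replicate 2 stood near the SKO libraries, and the gene was not called (log2 0.46 ± 0.15, edgeR adjusted p = 0.0594) unless that library was left out (0.00795), low counts were kept, or upper-quartile factors or total counts alone set the scale. Arsb, Idua, Ids, Sgsh and Naglu, which each remove one type of residue or sulfate, had log2 fold changes from -0.24 (Arsb) to 0.23 (Sgsh) and were not called. Idua had 967 counts over the 6 libraries and overlaps exons of Slc26a1, which had 34279.

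The 42 genes together took 0.663%, 0.643% and 0.668% of all counts in SKO and 0.906%, 0.755% and 0.841% in DKO, without overlap. After TMM scaling their summed level was 7146, 7121 and 7021 CPM in SKO and 8024, 7120.1 and 8014 CPM in DKO, so DKO replicate 2 lay within the SKO range. Without Ctsl the sums were 6182 to 6375 CPM and 5745 to 6279 CPM and overlapped. Summed cysteine proteases stood at 2314 to 2462 CPM in SKO and 2827 to 3521 CPM in DKO, without overlap. Of these sums Ctsl alone made up 770.3 to 939 CPM in SKO and 1375 to 1790.2 CPM in DKO. Summed membrane proteins stood at 1913 to 2139 CPM and 1422 to 1615 CPM, without overlap, of which Lamp1 made up 714 to 767 and 258 to 320.0 CPM. The separation of each of these class sums thus rests on 1 gene and does not describe the whole class. Without Ctsl and Lamp1 the remaining genes took 0.492% to 0.520% of all counts in SKO and 0.582% to 0.675% in DKO. Their summed CPM overlapped (5448 to 5608 and 5487 to 5983), and their sums per kilobase did not (1295 to 1318 and 1368 to 1543). For all 42 genes, 13 lay above the SKO range in every DKO library and 10 below it, where 20.2% and 19.4% of all genes tested did so.

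Genes of other cell types moved along with part of these results. Summed CPM of 16 macrophage markers was 866, 681 and 784 in SKO and 1469, 952 and 1279 in DKO, and 10 of them were higher and none lower, with log2 fold changes from 0.36 (Spic, not called) to 4.73 (Gpnmb), and none was at 0 in any library. Of 12 stellate and fibroblast markers 8 were higher (sums of 462 to 520 and 755 to 1076 CPM). Of 7 cholangiocyte markers, 6 of them tested, Spp1, Krt19 and Epcam were higher (sums of 61.1 to 73.9 and 121 to 199 CPM). Spp1 alone averaged 55.6 CPM in SKO and 134 CPM in DKO, where these sums averaged 65.5 and 150 CPM. Krt7, Sox9 and Cftr were not called, so the cholangiocyte sum rests mainly on Spp1 and does not describe the whole list. Of 9 endothelial markers none was called (582 to 618 and 539 to 597 CPM), nor was any of the 8 lymphocyte and neutrophil markers tested of 10 (6.59 to 7.43 and 6.59 to 12.2 CPM). Of 8 hepatocyte markers 5 were lower, Alb, Ttr, Apoa1, Trf and Serpina1c. Apoa2, Hnf4a (log2 0.11) and Cps1 (log2 -0.24) were not called. The 8 took 8.05% to 10.2% and 6.01% to 6.99% of all counts (84621 to 112960 and 54624 to 66606 CPM), of which Alb made up 53058 to 75508 and 31355 to 41458 CPM. In bulk liver, more cells of a type and more RNA per cell cannot be told apart. The macrophage sum was highest in DKO replicate 1 and lowest in replicate 2 among DKO, and 7 of the 9 lysosomal genes that rose had the same order, as did 53.4% of all genes called higher. Ctsl and Gla were the exceptions, and the part of other cell types in the 9 rises was not tested. Lamp1, Igf2r, Gm2a, Gnptg, Fuca1 and Tpp1 fell in the libraries in which macrophage and stellate markers and 3 cholangiocyte markers were higher. In the same libraries 5 of 8 hepatocyte markers were lower, and the part of the cell mixture in these falls was not tested.

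The V-ATPase, the proton pump that acidifies lysosomes, rose in 7 of its 17 listed genes and fell in none. Over all genes tested, 10.3% were called higher and 9.70% lower. Atp6v0e2, a membrane subunit of low level, rose from 0.821 ± 0.208 to 4.13 ± 0.724 CPM (log2 difference 2.34 ± 0.26, edgeR adjusted p = 0.000384). Atp6ap2, the accessory subunit also known as the prorenin receptor, was 43.4, 46.3 and 43.6 CPM in SKO and 57.6, 57.1 and 59.1 CPM in DKO (log2 difference 0.38 ± 0.06, edgeR adjusted p = 0.00354). Atp6v0a1, a subunit of the proton channel, went from 56.2 ± 2.40 in SKO to 72.9 ± 4.19 CPM (log2 difference 0.38 ± 0.07, edgeR adjusted p = 0.00624). The other 4 rises, in Atp6v0b, Atp6v0e, Atp6v1a and Atp6v1b2, had log2 fold changes from 0.34 to 0.39, and the list's median was 0.19. Of the 7, only the call for Atp6v0e ended when single libraries were left out (SKO replicate 2 or 3, DKO replicate 1 or 3).

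Among 31 other lysosomal hydrolases and activators, 3 rose and 5 fell (all genes tested: 10.3% higher, 9.70% lower). Hgsnat, the acetyltransferase of heparan sulfate breakdown, which sits in the lysosomal membrane, fell from 55.7, 58.9 and 60.6 CPM to 21.6, 18.6 and 24.5 CPM (log2 difference -1.44 ± 0.10, edgeR adjusted p = 2.29e-05), a size close to that of Lamp1. Dpp7, a dipeptidyl peptidase, fell (log2 -0.68 ± 0.13, edgeR adjusted p = 0.00583), as did Plbd2, Hyal1 and Hyal2. Ppt1, palmitoyl-protein thioesterase, rose from 35.5 ± 1.68 to 48.5 ± 3.87 CPM (log2 difference 0.45 ± 0.08, edgeR adjusted p = 0.00506), and the other rises were Ctss and Scpep1. Of the 3 rises only that of Ppt1 was kept without DKO replicate 3, and Ctss was also lost without SKO replicate 2 or 3. Calls for Hyal1 (without SKO replicate 1 or 3 or DKO replicate 1) and Hyal2 (without SKO replicate 2 or DKO replicate 3) ended too, and without DKO replicate 2 the higher genes numbered 6.

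Other lysosomal membrane proteins and transporters rose in 7 and fell in 2 of 31 tested genes (all genes tested: 10.3% higher, 9.70% lower). Sidt2 and Abca2, a lysosomal nucleic acid transporter and a lipid transporter of the ABC family, went down from 173, 199.5 and 219 to 83.4, 80.9 and 95.4 CPM and from 44.0 ± 4.60 to 22.8 ± 1.55 CPM (log2 difference -1.19 ± 0.10 and -0.95 ± 0.10, edgeR adjusted p = 8.48e-05 and 0.000225). Laptm4b, a transmembrane protein of late endosomes, rose from 22.7 ± 1.41 to 34.8 ± 2.22 CPM (log2 difference 0.62 ± 0.09, edgeR adjusted p = 0.00126). The other rises were Cd63, Cd68, Cln3, Laptm5, Slc15a3 and Grn, of which Cd68 and Laptm5 are also known as genes of macrophages and leukocytes. Cd63, Cd68, Laptm5, Slc15a3 and Grn had the DKO order of the macrophage sum (replicate 1 highest, 2 lowest), as did 53.4% of all genes called higher. Cln3 and Laptm4b did not. Among the hydrolases above, Ctss had this order, and Ppt1 and Scpep1 did not. The part of other cell types in these rises was not tested. Higher calls fell to 4 without SKO replicate 2 or DKO replicate 3, either of which ended the calls for Cd63, Cln3 and Slc15a3. Cd63 was also lost without SKO replicate 1, and Cln3 and Slc15a3 without SKO replicate 3.

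The transcription factors that act on CLEAR elements were not called. Tfeb was 11.6 to 12.7 CPM in SKO and averaged 11.1 ± 0.261 CPM in DKO, each library just below the SKO range (log2 difference -0.11 ± 0.10, edgeR adjusted p = 0.474), Tfe3 was 36.0 ± 3.55 and 39.4 ± 3.52 CPM (0.373), and Mitf was 3.77 ± 0.294 and 3.99 ± 0.233 CPM (0.777). Their activity is set largely by phosphorylation and nuclear entry, which these counts do not measure. In the list of 23 tested factors and nutrient sensors, Rragd, a Rag GTPase, rose from 2.99, 1.97 and 2.81 CPM to 17.7, 7.66 and 12.8 CPM (log2 difference 2.30 ± 0.33, edgeR adjusted p = 0.00378). Rragd had the DKO order of the macrophage sum (replicate 1 highest, 2 lowest), as did 53.4% of all genes called higher. Mlst8, the other gene called higher in this list, did not. The part of other cell types in the rise of Rragd was not tested. Mlst8 rose barely past the threshold (edgeR adjusted p = 0.0497) and was called without a library in none of the 6 fits. Fnip2, a partner of folliculin, fell from 61.8 ± 6.58 to 41.5 ± 3.91 CPM (log2 difference -0.57 ± 0.10, edgeR adjusted p = 0.00361). Rptor, the raptor subunit of mTORC1, and Fnip1 fell too (log2 -0.35 ± 0.07 and -0.29 ± 0.08). Rptor lost its call with total counts alone. Fnip1 lost its call with total counts alone, with upper-quartile factors, and when any library but DKO replicate 3 was left out. Of 26 other sorting and fusion genes 3 rose, Ap1m1, Arl8a and Vps18 (log2 0.26 to 0.35), and Rab9 fell (log2 -0.26 ± 0.07), each with an edgeR adjusted p between 0.0229 and 0.0366. All 4 of these calls depended on single libraries: 1 gene was higher without SKO replicate 3 and without either replicate 2 or 3 of DKO, none without SKO replicate 2 or DKO replicate 1, and 4 without SKO replicate 1. Rab9 was lost without SKO replicate 2 or 3 or DKO replicate 3. Beside the counts of both lists stand the shares of all genes tested, 10.3% called higher and 9.70% lower.

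**Figure D5:**
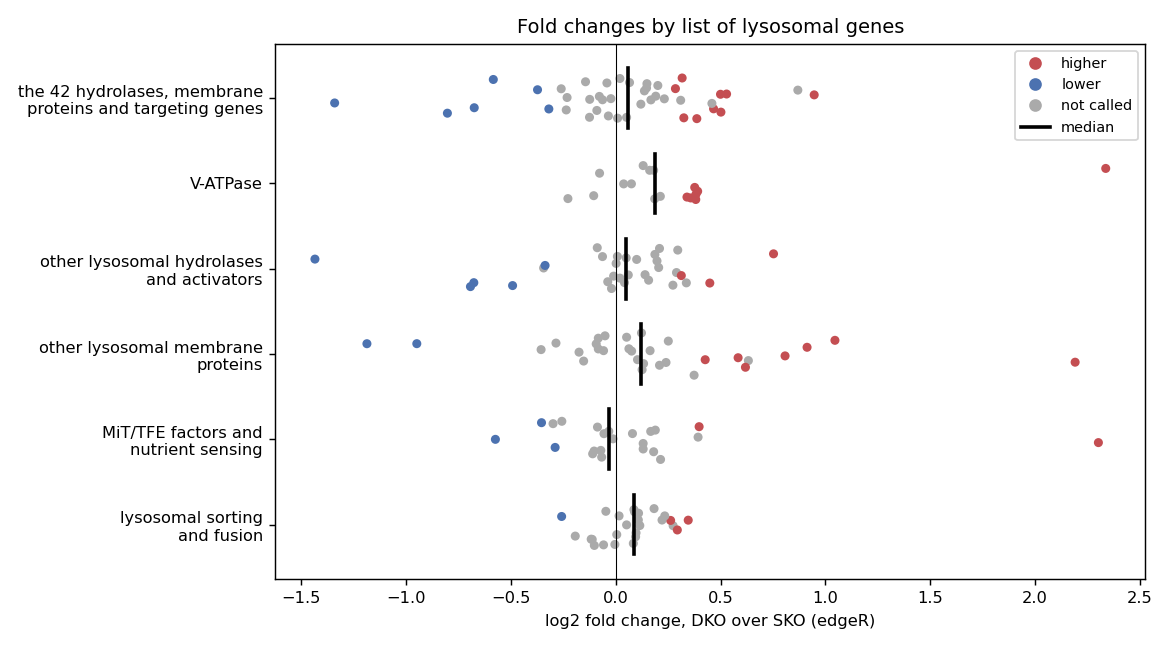
Log2 fold change in DKO over SKO (x axis, edgeR) of the 42 lysosomal genes and of 5 lists of other lysosomal genes (points, genes, spread vertically for visibility; red, higher; blue, lower; grey, not called; black bars, medians). Medians lie between -0.03 and 0.19, and each list holds called and uncalled genes.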

How the data were processed

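RNA was measured in 6 mouse liver libraries, 3 SKO and 3 DKO, grouped by the genotype in the labels. The authors deposited raw read counts per Ensembl gene, as whole numbers. Tools listed in the submitters' processing notes are STAR, HTSeq 0.6.1p1, cutadapt 1.13 and DESeq2, with build mm10. Their settings, the annotation release and the strand mode are not given here. Reads shared by overlapping genes may have been dropped, and exons of 15 of the 42 genes overlap those of another gene. Symbols, coordinates and exon lengths came from GENCODE M21, which matched 54165 of 54232 identifiers.

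Counts were filtered with filterByExpr and fitted over all 13986 remaining genes by robust quasi-likelihood (glmQLFit, glmQLFTest) in edgeR 4.0.16 under R 4.3.3, scaled by TMM. The contrast was DKO over SKO on 4 residual degrees of freedom, Benjamini-Hochberg adjustment ran over all genes tested, and calls needed an adjusted p under 0.05. Recovery of known fold changes was tested on simulated counts, with spread set by level alone and no shift in composition between groups. It therefore does not bear on the choice of scaling. Per-gene SE is the log2 fold change over the square root of F. A count of 0 allows up to 3 counts, or 0.126 to 0.191 CPM (counting error only). Alternatives were 3 other scalings, DESeq2 1.42.0, limma-voom (limma 3.58.1), no filter, and leaving out each library. Full statistics are given for called members (every role held one). The 3 called genes of smallest p in each of 5 lists of other lysosomal genes (130 symbols, 2 matched by an older symbol) are also named. So are Xbp1, Nr1h4, Tfeb, Tfe3, Mitf and Hgsnat whatever their result. Some genes outside the 42 are given with shortened statistics. Other genes are named to complete small counts, and the 5 CPM level and the ratios were chosen after values were seen. The 42 genes, lists, marker lists (62 symbols) and motifs were chosen with earlier results of these data known. Some listed genes are not reported here.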

Additional observations from a re-analysis of the deposited data

How the results depend on the processing

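No gene named by the rule changed direction with a call in any of the 12 alternatives. With total counts alone 19 of the 42 genes were higher and the median was 0.28, where all genes had 0.23. That scaling gave 13 higher V-ATPase genes, 15 higher and 3 lower other hydrolases, 19 higher membrane proteins, 8 higher and 1 lower sensors and factors, and 18 higher and 0 lower sorting genes, and 87.8% of all calls were higher, against 51.6% with TMM and 65.3% with upper-quartile factors. The latter gave a median of 0.121 (all genes 0.07), 5 higher sensors, and 5 higher and 0 lower sorting genes. DESeq2 size factors in edgeR gave 1 lower V-ATPase gene and 1 higher sensor. DESeq2 gave 1 higher sensor and 1 higher sorting gene, limma-voom 1 higher sensor, and no filter 1 higher and 5 lower sensors. Leaving out each library gave 3 to 9 higher members and a median of 0.048 to 0.111, 1 to 6 higher other hydrolases, 4 to 8 higher membrane proteins, 1 higher sensor in each fit, and 0 to 4 higher and 0 to 1 lower sorting genes. Of the 15 member calls, 9 to 12 were kept in those 6 fits. Ctsk, with 184 counts over the 6 libraries, had the fewest of the 42 genes, and the part of depth in its missing call was not tested. No paired analysis was possible because the labels give no replicate numbers that link SKO libraries with DKO libraries.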
